A study of Mus musculus with 6 samples.

Results

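Kinesins are the motor proteins that walk along microtubules, and they are described here in mouse pre-B leukaemia cells with and without Cre deletion of Ppp2r1a, which encodes a scaffold of protein phosphatase 2A (PP2A). The members are the genes whose probe set carries a single annotated symbol that starts with Kif and a number, together with Kifc2 and Kifc3, with 1 probe set per gene (the one with the highest mean over the 6 arrays). The rule found 40 of the 19733 genes tested. One of them, Kif4-ps, is a pseudogene, which leaves 39 motors. Of the 12 motors that the rule lists as mitotic, 11 were measured alone. Kifc1 shares its probe set with Kifc5b and is given apart. The other 28 motors were described as 17 transport motors and 11 remaining kinesins with roles in cilia, in centrioles, in microtubule disassembly or in other settings. The remaining class is not free of spindle roles: it holds Kif2a, a depolymerase of spindle poles that the rule does not list as mitotic.

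The cells were bone marrow pre-B cells of Ppp2r1a fl/fl mice, transduced with the BCR-ABL1 oncogene, a fusion kinase that drives acute lymphoblastic leukaemia. A Cre vector was then given in 3 samples, which removes Ppp2r1a, the gene of the A alpha scaffold of PP2A, and an empty vector (EV) in 3 others. Both groups carry the floxed alleles and BCR-ABL1, and the EV samples are labelled wild type. Each sample was hybridised to 1 Affymetrix array. Nothing in the labels ties the repeats to separate mice or cultures. The p-values therefore rest on the spread of these samples alone, and that spread may be technical. No group had Cre without floxed alleles, so effects of Cre itself and of losing Ppp2r1a cannot be told apart in any comparison.

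Values are log2 levels made by RMA, on which 1 unit is a doubling, and a change is the Cre mean minus the EV mean with its standard error (SE). A gene was called changed at a limma adjusted p below 0.05. By that rule 689 genes changed, 3.49% of all genes: 267 rose (1.35%) and 422 fell (2.14%). Ppp2r1a itself read 7.12, 6.98 and 6.92 in the Cre arrays, against 9.06, 9.05 and 9.06 in the EV arrays, a change of -2.05 (SE 0.07; limma adjusted p = 1.2e-05). All 8 measured pre-B markers were above the array medians on every array. Of 27 measured markers of T, myeloid, erythroid, megakaryocyte, stromal and neuronal cells, 1 (Col1a1) was above them on every array. The summed level of the 7 myeloid markers was 28.0 to 28.1 in the Cre arrays and 27.0 to 27.6 in the EV arrays, and its part in the results was not tested.

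Most kinesins have a motor domain that splits ATP to step along a microtubule or to take its end apart, and the rest of the protein decides what it carries. Mitotic kinesins build the bipolar spindle, move chromosomes and bundle the midzone microtubules where the cell divides. They are made mostly in late S phase, G2 and mitosis, when the repressive DREAM complex leaves their promoters and MYB-MuvB and FOXM1 act there. Transport kinesins carry vesicles, endosomes, mitochondria and ciliary cargo in all cells, and many of them are best known from neurons. PP2A removes phosphates that mitotic kinases place, and it acts at centromeres and in mitotic exit.

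Promoters of mitotic motors are shown because these genes are known for a shared cell-cycle control, which was not used to choose them. RefSeq windows (build GRCm38.p6) were found for 31 of the 39 motors and for 10 of the 11 mitotic ones. Kif20a is the mitotic motor without a window. Each was searched over the 250 bases before the start, on both strands, for the cell cycle genes homology region (CHR), written TTTGAA or TTCGAA and bound by MuvB complexes, and for the CCAAT box, bound by NF-Y. The 6 sequences below were picked because they hold a match close to the start; the runs of Kif14, Kif18a, Kif20b and Kif2c hold none and are not printed. Capitals mark a match. A match on the opposite strand reads TTCAAA or ATTGG. The run ends at the base before the start and is 120 bases long, or 30 where another annotated transcript begins further upstream.
Kif23 (chr9:61946800-61946829, minus strand): cccttcgccgcaggcggccgctgATTGGcc
Kif4 (chrX:100625945-100626064, plus strand): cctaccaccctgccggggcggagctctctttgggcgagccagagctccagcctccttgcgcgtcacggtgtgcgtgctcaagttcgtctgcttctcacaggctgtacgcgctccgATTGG
Kif18b (chr11:102925125-102925154, minus strand): CCAATgagaagcgcggatgagcggaccggc
Kif11 (chr19:37376262-37376381, plus strand): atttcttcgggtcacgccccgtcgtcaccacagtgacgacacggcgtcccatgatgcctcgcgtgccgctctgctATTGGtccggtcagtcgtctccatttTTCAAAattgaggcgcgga
Kif15 (chr9:122950961-122951080, plus strand): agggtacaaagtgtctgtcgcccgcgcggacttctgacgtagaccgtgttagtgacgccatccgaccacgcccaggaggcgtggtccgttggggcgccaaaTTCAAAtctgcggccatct
Kif22 (chr7:127042421-127042450, minus strand): ggggccccggtaaTTCAAAagagagaagcg

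Kif11, Kif15 and Kif22 each hold a CHR-type match within the last 20 bases before the start. It lies 14 to 19 bases before the start in Kif11 and in Kif15, and 12 to 17 bases before it in Kif22. Kif11 and Kif22 also hold a CCAAT match upstream of it. A CHR-type match was found in 5 of the 10 mitotic windows (50%), in 4 of the 25 windows of the other motors (16%) and in 14.7% of the 18954 windows of tested genes. A CCAAT match was found in 6 of 10 mitotic windows (60%), in 9 of 25 windows of the other motors (36%) and in 34.6% of all windows. No matches overlapped one another in the mitotic windows. Kif14 and Kif2c held their matches further upstream, and Kif18a and Kif20b held neither motif in this window. Kif4, Kif18b and Kif23 held CCAAT matches and no CHR-type match. Whether a match goes with the change of a gene was not tested. The shares count every window alike. In Kif14, Kif18b, Kif20b, Kif22, Kif23, Kif2c and many of the other motors the start lies inside the annotated gene, downstream of another start. Whether those windows act as promoters was not tested. A match is a description of letters and not a measured binding site, and these shares were not tested.

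**Figure D1:**
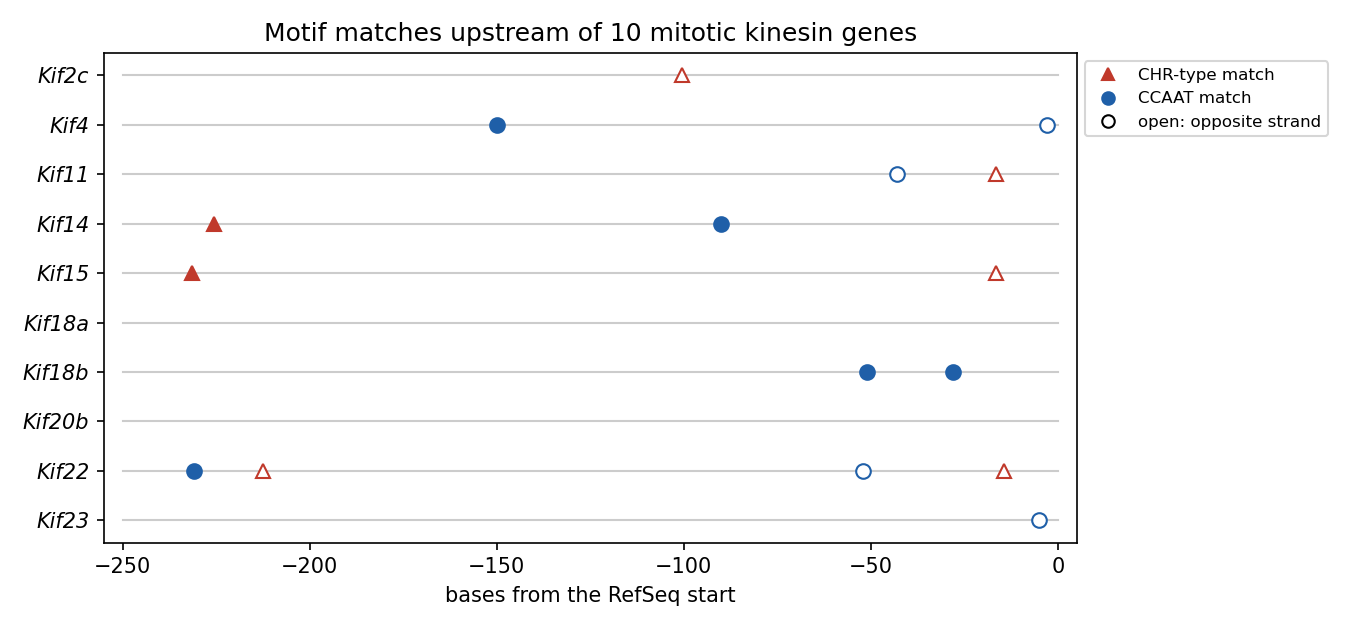
Motif matches in the 250 bases before the RefSeq start of 10 mitotic kinesin genes. The x axis is the distance from the start in bases, triangles are CHR-type matches, circles are CCAAT matches, and open symbols lie on the opposite strand. Kif11, Kif15 and Kif22 each have 1 CHR-type match within 20 bases of the start, Kif15 and Kif22 have others 210 or more bases away, the CCAAT matches nearest the start are those of Kif4 and Kif23, and Kif18a and Kif20b have none.

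Among the mitotic motors, 2 rose in the Cre cells, both of them motors of the central spindle, and 9 did not pass the test. Kif20a, which carries the chromosomal passenger complex to the spindle midzone, and Kif23, the motor subunit of centralspindlin, were the motors that rose. Of all genes 1.35% rose, and of these 11 motors 2 did. At an unadjusted p below 0.05 there were 3 of the 11, against 16.1% of all genes. The median change of the 11 was 0.10 on the log2 scale, against 0.00 over all genes, and 10 of the 11 changes were positive, against 49.1% of all genes. Shares over all genes, here and below, are not matched for level. All 11 motors were above the median of all genes on every array, and their median SE was 0.07, against 0.09 over all genes. Without the dimmer 50% of genes, 1295 genes passed, 3 of them mitotic motors.

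Kif20a read 8.43, 8.38 and 8.28 in the Cre arrays, against 8.03, 7.99 and 7.97 in the EV arrays. Kif23 read 9.43, 9.34 and 9.28 in the Cre arrays, against 8.99, 8.99 and 9.05 in the EV arrays. In both genes all Cre arrays lay above all EV arrays, and Cre repeat 1 was the highest. Kif20a rose 1.29-fold, from a change of 0.36 (SE 0.07; limma adjusted p = 0.0289). Kif23 rose 1.27-fold, from a change of 0.34 (SE 0.07; limma adjusted p = 0.0346). Both are close to the threshold. Without any 1 of the 6 arrays Kif23 no longer passed (limma adjusted p between 0.0656 and 0.123), and Kif20a passed without Cre repeat 3 (0.0473) and in none of the other 5 fits (highest 0.107). The change itself stayed between 0.33 and 0.40 for Kif20a and between 0.30 and 0.38 for Kif23 in those fits.

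The chromokinesins, which bind chromosome arms, are Kif4 and Kif22. Kif4, which also shortens midzone microtubules in anaphase, read 8.34, 8.31 and 8.21 in the Cre arrays, against 8.07, 8.05 and 8.13 in the EV arrays. The groups did not overlap, and the change of 0.21 (SE 0.07) did not pass (limma adjusted p = 0.167; 95% interval 0.05 to 0.36). Kif4 passed with eBayes trend and robust settings (limma adjusted p = 0.0324) and without the dimmer 50% of genes (0.0474), and its adjusted p lay between 0.0324 and 0.369 over all alternatives. Kif22, which pushes chromosome arms away from the poles, read 7.91, 7.92 and 7.87 in the Cre arrays, against 7.92, 7.76 and 7.88 in the EV arrays. Its groups overlapped and its change was 0.05 (SE 0.07).

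Kif14 and Kif20b act in cytokinesis, Kif14 with citron kinase at the midbody. Kif14 read 7.86, 7.77 and 7.87 in the Cre arrays, against 7.77, 7.65 and 7.75 in the EV arrays. Kif20b read 8.53, 8.47 and 8.58 in the Cre arrays, against 8.42, 8.39 and 8.48 in the EV arrays. The Kif14 groups barely parted, with the lowest Cre array at 7.772 and the highest EV array at 7.77, and the Kif20b groups overlapped. Their changes of 0.11 (SE 0.07) and 0.10 (SE 0.07) did not pass (limma adjusted p = 0.492 and 0.546).

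Spindle bipolarity rests on Kif11, a tetrameric motor that slides the poles apart, with Kif15 as its helper. Kif11 read 9.78, 9.73 and 9.83 in the Cre arrays, against 9.64, 9.71 and 9.71 in the EV arrays. Kif15 read 9.46, 9.48 and 9.39 in the Cre arrays, against 9.38, 9.32 and 9.43 in the EV arrays. All Cre arrays were above all EV arrays for Kif11, and the groups overlapped for Kif15. The 95% interval of the change ran from -0.06 to 0.24 for Kif11 and from -0.08 to 0.22 for Kif15. That of Kif20a ran from 0.21 to 0.52 and overlaps both, and differences between genes were not tested.

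The motors of microtubule ends are Kif18a, which damps chromosome oscillation at the metaphase plate, Kif18b, which shortens astral microtubules, and Kif2c, a depolymerase at centromeres. Kif18b read 8.66, 8.64 and 8.64 in the Cre arrays, against 8.51, 8.45 and 8.59 in the EV arrays. Kif18a read 7.92, 7.92 and 7.97 in the Cre arrays, against 7.91, 7.85 and 7.92 in the EV arrays. Kif2c read 8.26, 8.24 and 8.26 in the Cre arrays, against 8.29, 8.30 and 8.37 in the EV arrays. The Kif18b groups did not overlap (Cre above EV), those of Kif18a did, and Kif2c was the 1 mitotic motor with all Cre arrays below all EV arrays. None of these passed in limma: the changes were 0.13 (SE 0.06) for Kif18b, 0.04 (SE 0.06) for Kif18a and -0.07 (SE 0.06) for Kif2c, with adjusted p of 0.376, 0.808 and 0.659.

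In all, Cre lay above EV without overlap for 6 of the 11 mitotic motors, against 10.3% of all genes, and below it for 1, against 12.2% of all genes. Averaged over the 11 genes, the arrays stood 0.09, 0.05 and 0.05 above each gene's own mean in Cre and at -0.06, -0.10 and -0.03 in EV. In bulk RNA, a larger share of cells in mitosis and more transcript per cell cannot be told apart.

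**Figure D2:**
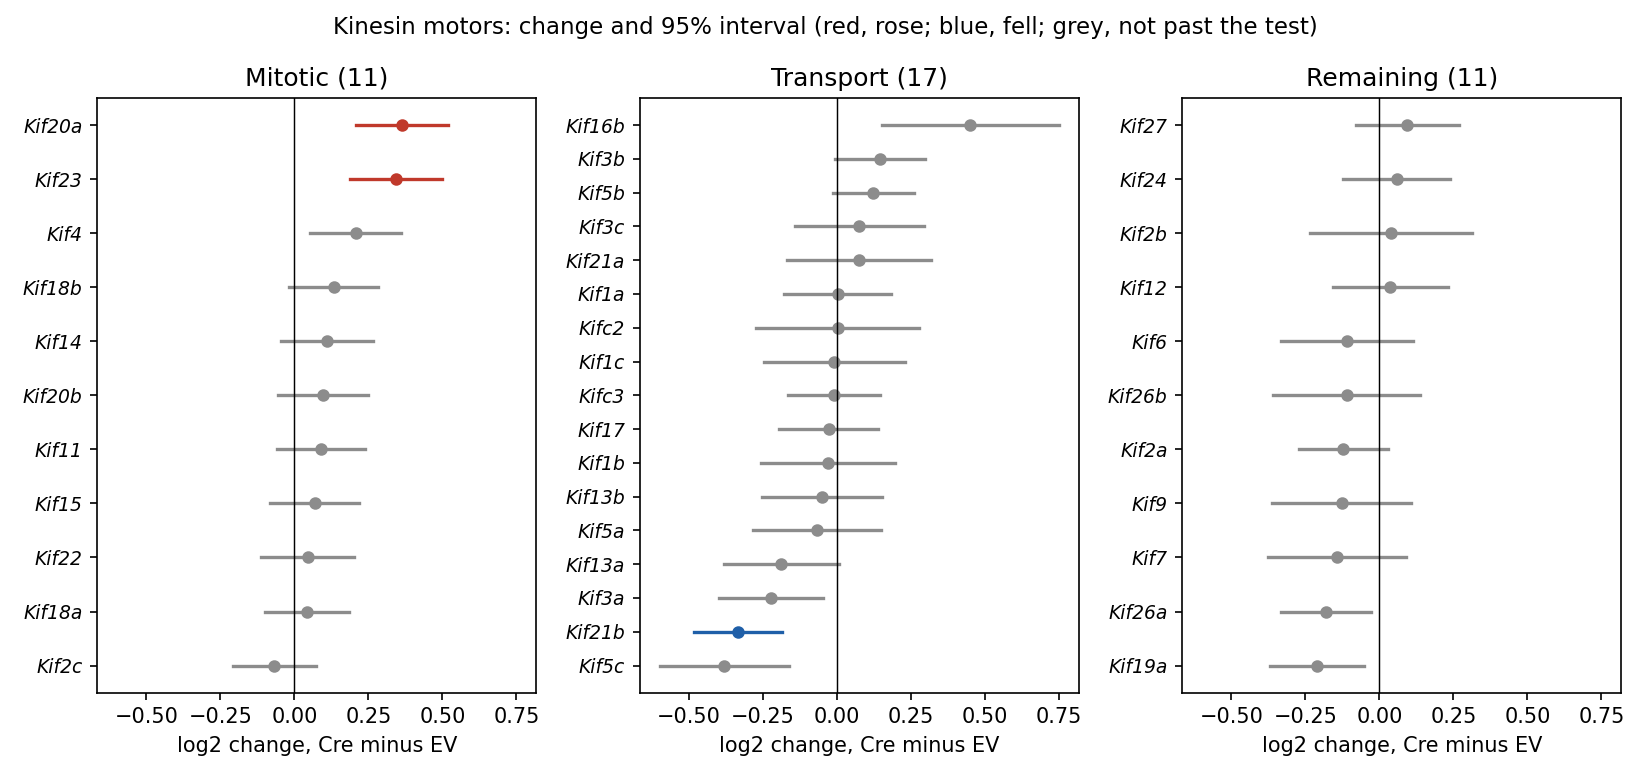
Change of each of the 39 kinesin motors (log2, Cre minus EV; points) with its 95% interval from limma (lines), by role. Kif20a and Kif23 (red) rose, Kif21b (blue) fell, and the grey genes did not pass the test. Of the mitotic motors 10 of 11 lie right of 0, against 7 of 17 transport motors and 4 of 11 remaining kinesins.

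Of the 17 transport motors, 1 fell (Kif21b) and 0 rose, where 2.14% of all genes fell and 1.35% rose. At an unadjusted limma p below 0.05 there were 4 of the 17, against 16.1% of all genes. Their median change was -0.01, with 7 positive and 10 negative changes. Kif21b, a kinesin-4 motor that limits microtubule growth and is known from neurons and lymphocytes, read 7.22, 7.16 and 7.10 in the Cre arrays, against 7.53, 7.46 and 7.48 in the EV arrays. All Cre arrays were lower. It fell 1.26-fold, a change of -0.33 (SE 0.06; limma adjusted p = 0.0336), and no longer passed without any 1 of the 6 arrays (adjusted p between 0.0765 and 0.113), while the change stayed between -0.36 and -0.30.

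Kif5c and Kif16b differed by more than Kif21b, with larger standard errors, and did not pass. Kif5c, a heavy chain of conventional kinesin enriched in neurons, read 4.10, 3.92 and 3.95 in the Cre arrays, against 4.54, 4.33 and 4.25 in the EV arrays. Its change of -0.38 (SE 0.09; limma adjusted p = 0.0833) sits on a level below the median of all genes on every array. Kif16b, which moves early endosomes, read 5.93, 5.83 and 6.08 in the Cre arrays, against 5.40, 5.31 and 5.77 in the EV arrays. EV repeat 3 stood well above the other EV arrays. The change of Kif16b was 0.45 (SE 0.13; limma adjusted p = 0.127), and without EV repeat 3 it was 0.59 and passed (adjusted p = 0.0345). It also passed with trend and robust settings (0.0352) and without the dimmer 50% of genes (0.0422).

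Kinesin-2 moves cargo along the cilium as a pair of Kif3a with Kif3b or Kif3c. Kif3a read 6.68, 6.57 and 6.65 in the Cre arrays, against 6.75, 6.96 and 6.85 in the EV arrays. Kif3b read 6.63, 6.72 and 6.66 in the Cre arrays, against 6.46, 6.58 and 6.53 in the EV arrays. Neither gene's groups overlapped, with Cre below EV for Kif3a and above it for Kif3b. The differences of -0.22 (SE 0.08) and 0.15 (SE 0.06) did not pass (limma adjusted p = 0.193 and 0.328).

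Kif5b, the heavy chain of conventional kinesin used in most tissues, read 8.86, 8.84 and 8.87 in the Cre arrays, against 8.76, 8.74 and 8.70 in the EV arrays. All its Cre arrays were higher, and the change of 0.12 (SE 0.06; limma adjusted p = 0.371) did not pass. Kif1c, a kinesin-3 motor of vesicles, read 8.63, 8.70 and 8.37 in the Cre arrays, against 8.70, 8.55 and 8.48 in the EV arrays, and its groups overlapped. The other 11 transport motors, Kif3b among them, differed by between -0.19 and 0.15 and did not pass (lowest limma adjusted p 0.328). Of these, Kif1a, a carrier of synaptic vesicle precursors, and Kifc2 differed by 0.00, with 95% intervals of -0.18 to 0.18 and -0.27 to 0.28.

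None of the 11 remaining kinesins passed in limma, where 3.49% of all genes did. Of the 11, 2 had an unadjusted p below 0.05, against 16.1% of all genes. The median change of the 11 was -0.11, with 7 negative changes. Kif19a, which shortens the tips of motile cilia, read 5.15, 5.16 and 5.26 in the Cre arrays, against 5.47, 5.34 and 5.41 in the EV arrays. Kif26a, an atypical kinesin without motor activity, read 5.36, 5.34 and 5.41 in the Cre arrays, against 5.54, 5.62 and 5.49 in the EV arrays. Kif2a, a depolymerase of spindle poles and of growing axons, read 8.95, 8.85 and 8.88 in the Cre arrays, against 9.03, 9.05 and 8.97 in the EV arrays. In these 3 genes all Cre arrays were below all EV arrays. The changes were -0.21 (SE 0.07), -0.18 (SE 0.07) and -0.12 (SE 0.06), at limma adjusted p of 0.172, 0.228 and 0.423.

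Kif7, a regulator of Hedgehog signalling at the ciliary tip, read 5.41, 5.62 and 5.63 in the Cre arrays, against 5.52, 5.76 and 5.81 in the EV arrays. Kif24, a centriolar depolymerase that restrains cilium assembly, read 6.80, 6.89 and 6.69 in the Cre arrays, against 6.65, 6.78 and 6.78 in the EV arrays. The groups overlapped in both. The other 6, Kif2b, Kif6, Kif9, Kif12, Kif26b and Kif27, were below the median of all genes on every array and differed by between -0.13 and 0.09. Taking transport and remaining kinesins as 28 genes, 1 passed (3.49% of all genes did) and their median was -0.03. Cre lay above EV for 3 of the 28, against 10.3% of all genes, and below it for 6, against 12.2%, so the counts of calls and of genes with Cre above EV are near those shares. All 11 mitotic motors were above the median of all genes on every array, against 13 of these 28.

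**Figure D3:**
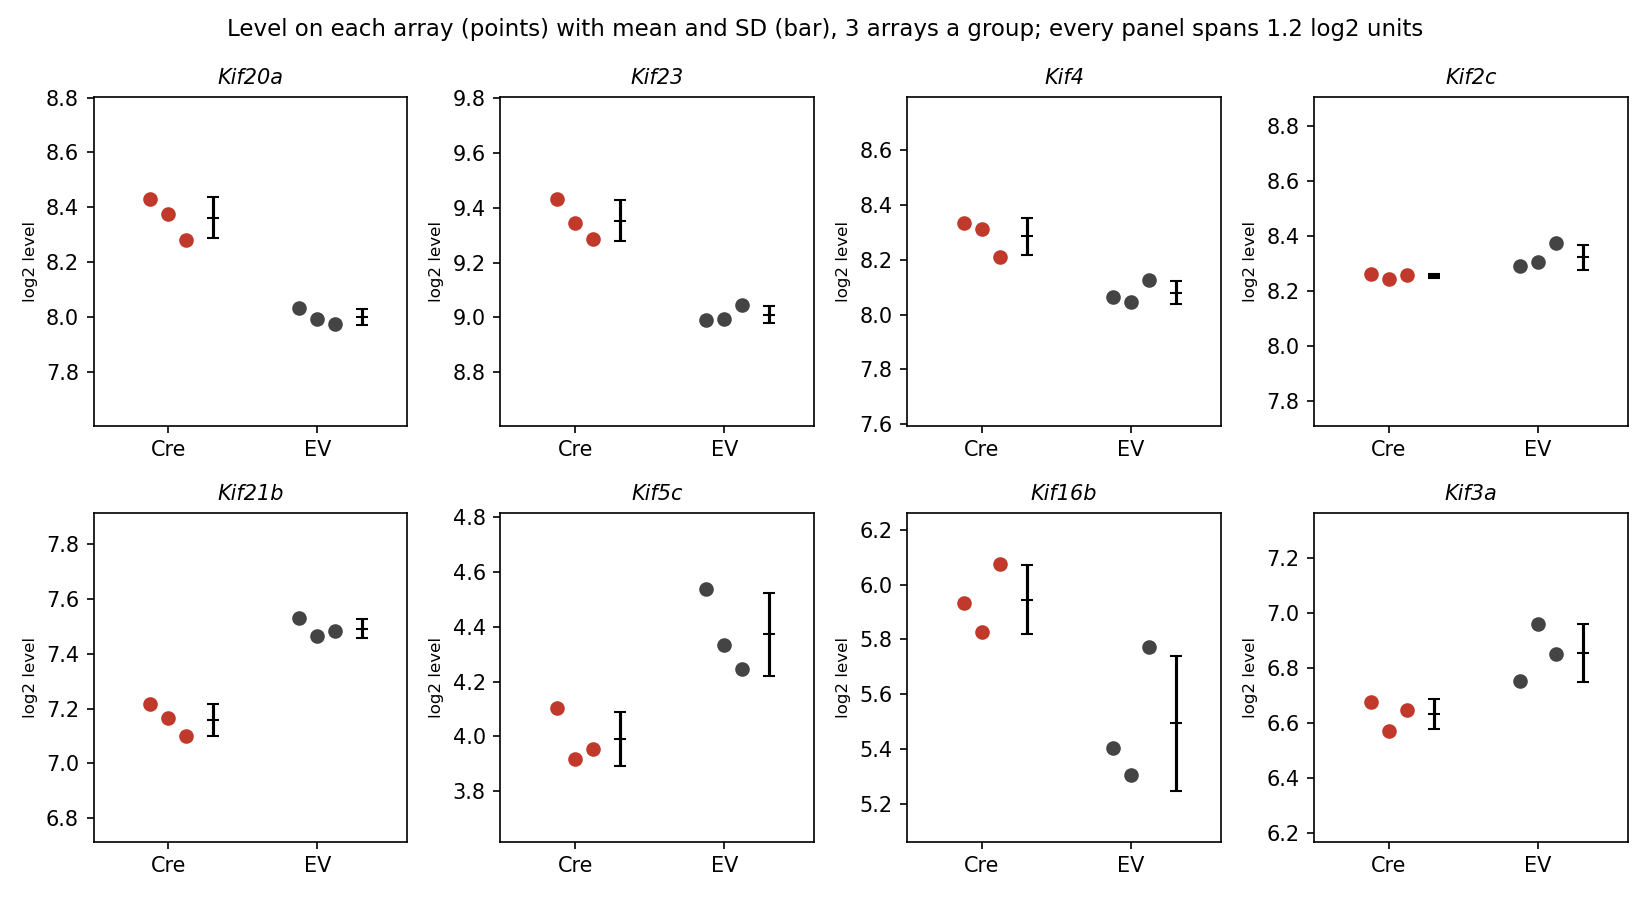
Log2 level of 8 kinesins on each array (points; Cre left, EV right), with the mean and SD of 3 arrays beside them (bars). Every panel spans the same range. Kif20a and Kif23 are higher and Kif21b is lower in Cre without overlap, and EV repeat 3 of Kif16b lies apart from the other EV arrays.

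No partner of the mitotic motors in the central spindle or spindle lists passed in limma, where 3.49% of all genes did. For comparison, over all genes 49.1% of changes were positive, 10.3% had all Cre arrays above all EV arrays, 12.2% had them below, and 16.1% had an unadjusted p below 0.05. Among 12 central spindle and cytokinesis partners the median change was 0.12, 11 changes were positive, 6 genes had all Cre arrays above all EV arrays, and 3 an unadjusted limma p below 0.05. Incenp, the scaffold of the passenger complex that Kif20a carries, differed by 0.24 (SE 0.07; limma adjusted p = 0.145) and Plk1, the kinase that docks on Kif20a, by 0.15 (SE 0.06; 0.285). Racgap1, which joins Kif23 in centralspindlin, read 8.15, 8.17 and 8.18 in the Cre arrays, against 8.08, 8.14 and 7.96 in the EV arrays, and differed by 0.11 (SE 0.07; 0.531). For 22 spindle and kinetochore partners the median change was 0.07 and 14 changes were positive. In 11 of the 22 genes all Cre arrays were above all EV arrays and in 2 below, and 7 had an unadjusted p below 0.05. Cenpe, itself a kinesin that brings chromosomes to the plate and lies outside the rule by its name, read 8.97, 8.87 and 8.89 in the Cre arrays, against 8.67, 8.69 and 8.67 in the EV arrays (change 0.24, SE 0.06; limma adjusted p = 0.1). Spc24, of the Ndc80 complex, differed by 0.25 (SE 0.07; 0.123). Tpx2 differed by 0.185 (SE 0.06, limma adjusted p = 0.175). Numa1, which focuses spindle poles, lay the other way and read 8.21, 8.16 and 8.27 in the Cre arrays, against 8.39, 8.36 and 8.44 in the EV arrays, a difference of -0.19 (SE 0.06; limma adjusted p = 0.193).

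The regulators of mitotic genes and the genes of S phase give the setting. Of 14 genes of the DREAM, MYB, FOXM1 and NF-Y machinery none passed in limma, where 3.49% of all genes did. None of the 14 had an unadjusted p below 0.05, against 16.1% of all genes. Their median was 0.04, with 11 positive and 3 negative changes, where 49.1% were positive over all genes. All Cre arrays were above all EV arrays in 1 of the 14 genes and below them in 1. Foxm1 differed by 0.06 (SE 0.07), and Nfyb and Lin37, with the smallest p of the list, by 0.14 (SE 0.07) and -0.15 (SE 0.07). Of 16 S phase genes none passed in limma, where 3.49% of all genes did. Of these 16, 3 had an unadjusted p below 0.05, near the 16.1% of all genes. The median of the 16 was 0.10, with 13 positive changes (49.1% over all genes). In 8 of the 16, all Cre arrays were above all EV arrays (10.3% over all genes). Ccne2 and Ccne1, the cyclins of S phase entry, differed by 0.22 (SE 0.06) and 0.23 (SE 0.08) at limma adjusted p of 0.122 and 0.217. The part that the cell-cycle state of the cultures has in the change of Kif20a and Kif23 was not tested.

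Among light chains and cargo adaptors of the transport motors, 2 rose, 0 fell and 15 did not pass, where 1.35% of all genes rose and 2.14% fell, with a median of 0.02 over the 17 of 21 entries matched to a tested gene. Klc1, a light chain that links conventional kinesin to its cargo, read 8.34, 8.28 and 8.32 in the Cre arrays, against 7.96, 7.89 and 7.93 in the EV arrays. Grip1, an adaptor that steers Kif5 with glutamate receptors into dendrites, read 5.44, 5.48 and 5.53 in the Cre arrays, against 5.01, 5.03 and 5.07 in the EV arrays. Neither gene's groups overlapped. Klc1 rose by 0.38 (SE 0.06; limma adjusted p = 0.0163), 1.30-fold, and Grip1 by 0.45 (SE 0.06; 0.00797), 1.37-fold. Grip1 passed without any 1 of the arrays (highest adjusted p 0.04), and Klc1 in none of those 6 fits (0.0505 to 0.0699). The level of Grip1 was near the median of all genes (5.213 to 5.271 by array), with its EV arrays below and its Cre arrays above. Klc1 was above that median on every array. Among those that did not pass, Jakmip1 was nearest the threshold, with a change of 0.31 (SE 0.07, limma adjusted p = 0.0749). All its Cre arrays were above all EV arrays. Plekhm2, which links lysosomes to kinesin, differed by -0.26 (SE 0.08; limma adjusted p = 0.158) and Klc4, another light chain, by -0.36 (SE 0.14; 0.242).

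**Figure D4:**
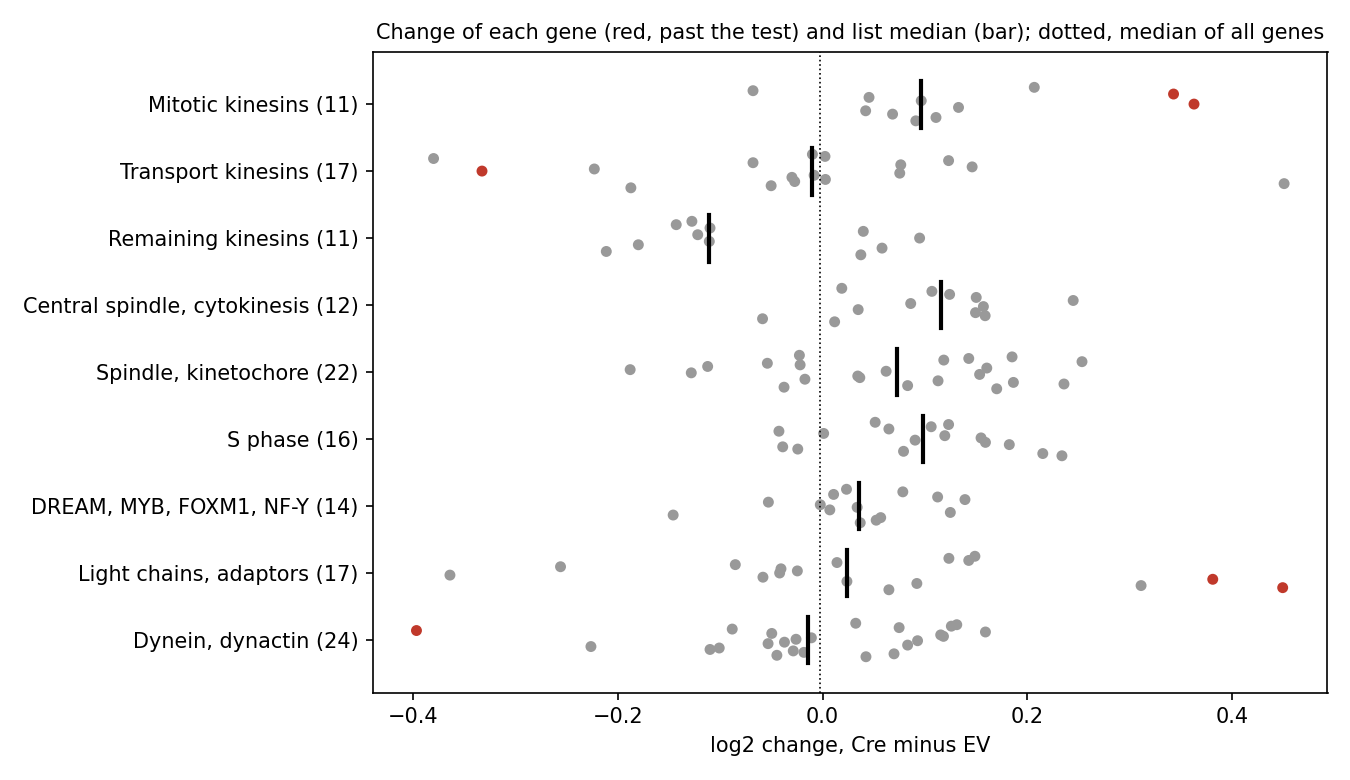
Log2 change (Cre minus EV) of each gene in 9 lists, with the list median (bar) and the median of all genes (dotted line); red genes passed the test, and the vertical scatter within a row has no meaning. The medians of the mitotic kinesins (0.10), the central spindle partners (0.12) and the S phase genes (0.10) lie to the right, and that of the remaining kinesins (-0.11) to the left.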

How the data were processed

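The authors deposited 1 log2 value for each probe set on each array, made with RMA, which corrects background, quantile-normalizes the arrays and summarises probes, per the submitters' processing notes; no version of it is recorded in those notes. Quantile normalization hides a change of the whole transcriptome. Array medians over all probe sets lay between 5.22 and 5.27, and precision is limited by having 3 arrays a group. Of 25006 probe sets, 21467 had 1 symbol in the platform annotation, 1521 several and 2018 none. Of the first, 21386 matched a RefSeq gene (GRCm38.p6), which gave chromosomes and promoter windows. The probe set with the highest mean was kept per gene, leaving 19733 genes.

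Cre was compared with EV in limma 3.58.1 (R 4.3.3; lmFit, eBayes, no block, no filter), with Benjamini-Hochberg adjustment over all genes. Tables used Python 3.11.15 with pandas 2.3.3 and plots matplotlib 3.10.9. The fit was tested on data simulated from the means and SDs of these genes, with the SDs shuffled among the genes. It recovered 54% of true changes of 0.5 and 89% of true changes of 1.0. Because of the shuffle, these shares do not apply to genes of a given level, such as the mitotic motors. Smaller changes were not simulated. Members and lists were chosen with earlier results of these data known. Values of every array were given for all mitotic motors and, in the other classes, for the genes that passed, the 4 smallest p and the 3 highest means. In the partner lists the genes that passed and up to 6 by smallest p were named, a number that varied by list. Foxm1 was named ahead of genes of its list with a smaller p. Racgap1, the array values of Kif3b, and the intervals of Kif1a and Kifc2 were added after their values were seen. The 10 alternatives tried are below.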

Additional observations from a re-analysis of the deposited data

How the results depend on the processing

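All 10 alternatives were run. The count of changed genes, 689, became 1558 with eBayes trend and robust settings, 1295 without the dimmer 50% of genes and 362 to 424 with 1 array left out (fewer samples). The 2 mitotic calls became 0 to 1 with 1 array left out, where 2 to 3 of the 11 had an unadjusted limma p below 0.05. The 1 call among the other 28 motors became 2 with trend and robust settings and without the dimmer 50% of genes, and 0 to 1 with 1 array left out, the 1 being Kif16b (4 to 7 at an unadjusted p below 0.05). Their median change of -0.03 was -0.0503 without the dimmer 25% of genes (25 left) and -0.0862 without the dimmer 50% (14 left). The change of each gene left was the same as before, so these medians differ only by the genes dropped. With 1 array left out the median was -0.0503 to -0.0226, and the cause of that shift was not tested. The mitotic median lay between 0.075 and 0.1245 in all alternatives. Quantile normalization again, median centring, array weights, the mean of all probes and the fit over all probe sets kept the calls of Kif20a, Kif23 and Kif21b. Over 39 motors and all alternatives, 25 of 568 changes turned sign, in 13 motors, none of them called; the largest main change among these motors was 0.11 in size (Kif26b), and a turned value reached -0.11 (Kifc2, without EV replicate 1). Deviations of same-numbered arrays correlated with r of 0.01, -0.01 and 0.03. These values show no shared deviation. They cannot show whether same-numbered samples were paired by culture or mouse, which the labels do not say. With the replicate block 425 genes passed, 0 mitotic motors (3 at an unadjusted p below 0.05) and 0 of the others (6), and limma's adjusted p was 0.0772 for Kif20a, 0.11 for Kif23, 0.0945 for Kif21b, 0.0628 for Klc1, 0.0811 for Hook1 and 0.0935 for Tubb2a. Dim genes limit the comparison: 12 of the 28 other motors were below the median of all genes on every array.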

Other observations

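Among tubulins, the building blocks of the tracks, 1 of 14 measured genes rose and 1 fell in the Cre cells, where 1.35% of all genes rose and 2.14% fell, with a median change of -0.08. Tubb3, a beta-tubulin best known from neurons, read 7.06, 6.78 and 6.34 in the Cre arrays, against 8.58, 8.12 and 8.15 in the EV arrays, and fell 2.94-fold (change -1.56, SE 0.19; limma adjusted p = 0.00549). Tubb2a read 8.14, 8.09 and 7.96 in the Cre arrays, against 7.28, 7.42 and 7.70 in the EV arrays, a rise of 0.60 (SE 0.11; 0.0311). The beta-tubulin genes are close in sequence, and whether their probe sets read one another was not tested. Tubb3 passed without any 1 of the arrays (highest adjusted p 0.0264), and Tubb2a passed without EV repeat 3 (0.0139) and in none of the other 5 such fits (highest 0.11).

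Dynein is the motor that runs the opposite way. Of 24 measured genes of cytoplasmic dynein, dynactin and their adaptors, 1 fell and 0 rose, where 2.14% of all genes fell and 1.35% rose, with a median of -0.01, 11 positive and 13 negative changes. Hook1, an adaptor that joins dynein to endosomes, read 6.026, 6.002 and 6.086 in the Cre arrays, against 6.435, 6.505 and 6.364 in the EV arrays, and fell by 0.40 on the log2 scale (SE 0.07; limma adjusted p = 0.0207). It passed without EV repeat 3 (0.0413) and in none of the other 5 fits with 1 array left out (highest 0.0846). Dctn6 of the dynactin complex followed at -0.23 (SE 0.08; limma adjusted p = 0.189).

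The probe set shared by Kifc1, which focuses spindle poles, and Kifc5b read 7.45, 7.41 and 7.45 in the Cre arrays, against 7.33, 7.20 and 7.14 in the EV arrays, a change of 0.21 (SE 0.07) that did not pass in a limma fit over all 25006 probe sets (adjusted p = 0.181). The pseudogene Kif4-ps read 4.54, 4.38 and 4.52 in the Cre arrays, against 4.46, 3.97 and 4.56 in the EV arrays. Whether its transcript is read by the probe set of Kif4 was not tested. The second probe sets of Kif14, Kif1c, Kif6, Kif7 and Kif26b differed by 0.04, 0.06, -0.06, -0.13 and 0.01, and those in the comparison by 0.11, -0.01, -0.11, -0.14 and -0.11. The signs differed for Kif1c and Kif26b, and none of these passed.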
